A study of Gallus gallus with 3 samples.

Results

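Long H3K27me3 domains of the embryonic chicken neural tube, 10 kb or more from end to end, were described in the peak lists of a chromatin immunoprecipitation sequencing (ChIP-seq) study. The domains were chosen from the H3K27me3 list alone: on numbered chromosomes, peaks with at most 5000 bp between them were joined, and joined regions of at least 10000 bp were kept. This gave 376 long domains among 3159 merged regions, or 11.9%, and left 2783 shorter merged regions. Long domains contained 1902 of the 5535 H3K27me3 peaks on these chromosomes (34.4%) and 45.9% of the sequence under H3K27me3 peaks. The domains were then divided by whether an H3K4me3 peak, from a separate library, shared at least 1 bp with them.

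All material was neural tube of wild-type White Leghorn embryos, staged HH30 by their form, cross-linked and sonicated before precipitation. The series has 1 H3K27me3 library, 1 H3K4me3 library and 1 Input, and the Input was not analysed here. The tissue is a mixture of progenitors and neurons, and how many embryos make up a library is not stated in the labels. The labelled tissue could not be checked against marker genes, because no annotation of galGal4, the assembly named in the processing notes, was used here. For the same reason domains are named by position, counted from 1, and are not assigned to genes, exons or introns. Each mark has no replicate, so no p-value was computed. The 95% intervals cover counting error only and treat neighbouring regions, and peaks within a domain, as independent.

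H3K27me3 is deposited by Polycomb repressive complex 2, whose EED subunit binds the mark and stimulates the EZH1 or EZH2 methyltransferase, so that the modification can spread along a locus. Polycomb repressive complex 1 binds the same mark through its CBX subunits. Long stretches are known in vertebrate embryos over clusters of developmental transcription factor genes, such as the HOX clusters, in cells that keep these genes silent. H3K4me3 is laid down at CpG-rich promoters by the SET1 and MLL methyltransferase complexes, and its presence with H3K27me3 at developmental promoters is called bivalency. Since the marks were mapped in separate libraries of a mixed tissue, peaks that overlap need not come from the same cells or alleles.

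Long domains ran from 10019 to 109745 bp, with a median of 15829.5 bp (quartiles 12488 and 22005.5 bp). Most were chains of peaks and not unbroken blocks: the median domain joined 4 H3K27me3 peaks (quartiles 3 and 6), the most was 35, and 10 domains were a single peak. Peaks covered 80.8% of the median domain (quartiles 68.2 and 90.8%), and the longest gap inside it was 2027 bp in the median. Of the long domains, 204 (54.3%) held an H3K27me3 peak with a score of 3100 or more, compared with 109 of the shorter regions (3.92%). The score is the authors' peak caller value, whose scale the files do not name, and many peaks share the value 3100. These properties follow in part from the length rule and are given as a description.

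The length limit cut through a continuous range. The shortest domains kept were 10019, 10023 and 10031 bp long, on chromosomes 22, 18 and 3, and held 0, 2 and 3 H3K4me3 peaks. The longest regions left out were 9987, 9963 and 9918 bp long, on chromosomes 24, 13 and 5, and held 1, 0 and 0.

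H3K4me3 was present in fewer than 1 in 2 long domains, yet in more than their placement elsewhere on the same chromosomes gave. It met 163 of the 376 long domains, or 43.4% (95% Wilson interval 38.4 to 48.4%), while 213 had none. Among all merged regions the share was 56.8%, so long domains met H3K4me3 less often than the merged regions as a whole. To set the number against position alone, each whole domain was moved to every possible start on its chromosome, and the exact mean over these placements was taken. That mean was 90.1 domains with H3K4me3 (24.0%; SD 7.94 domains over independent placements), so the observed number was 1.81 times the mean (interval 1.60 to 2.02). With placements kept within 1 Mb of the true start the mean was 28.0% and the ratio 1.55. Promoters, base composition and gaps of the assembly did not enter the placement.

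The excess rested on low-scoring H3K4me3 peaks. When only H3K4me3 peaks scoring the list's median or more were counted, 11.4% of long domains held one, and the ratio turned to 0.764 (interval 0.575 to 1.01).

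By number, 263 H3K4me3 peaks lay in long domains, 2.33% of the 11302 on these chromosomes, while 18.3% of all H3K4me3 peaks there met a merged H3K27me3 region of any length. The placement mean was 131.6 peaks (SD 13.5), a ratio of 2.0. Of the domains, 101 held a single H3K4me3 peak, 42 held 2, 13 held 3, 3 held 4, and 1 each held 5, 6, 7 and 9. The last 4 domains together held 27 of the 263 peaks (10.3%), and without them the ratio of peaks to placement was 1.83. Leaving out domains by their peak count in itself lowers this ratio, since placements were not limited likewise. The 2 sets of domains had similar median lengths, 16416 bp (interval 14839 to 17809 bp) in those with H3K4me3 and 15620 bp (interval 14507 to 16733 bp) in those without. Both had a median of 4 H3K27me3 peaks, covering 82.6% of the length in those with H3K4me3 (interval 79.7 to 85.3%) and 79.0% in those without (interval 77.0 to 82.5%).

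The shorter merged regions met H3K4me3 far above their placement mean. Of the shorter regions, 1632 of 2783 held H3K4me3 (58.6%; interval 56.8 to 60.5%), although placement gave only 6.17%, a ratio of 9.51. Per 100 kb of region, long domains held 3.45 H3K4me3 peaks, against 22.8 in shorter regions; the placement means were 1.73 and 2.40. H3K4me3 peaks covered 5.98% of the summed length of long domains and 30.01% of that of shorter regions. Most of the length of long domains thus carried H3K27me3 with no H3K4me3 peak listed over it.

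Within the long domains the ratio to placement was lower in the longer classes. It was 2.25 (interval 1.86 to 2.66) for the 169 domains of 10 to 15 kb and 2.08 (interval 1.63 to 2.54) for the 92 of 15 to 20 kb. In the 71 domains of 20 to 30 kb, 35.2% held H3K4me3, with a placement mean of 28.3% and a ratio of 1.25 (interval 0.889 to 1.66). The 44 domains of 30 kb or more met H3K4me3 in 59.1% of cases (interval 44.4 to 72.3%), but placement gave 42.6% for regions of that length, a ratio of 1.39 (interval 1.04 to 1.70). With placement within 1 Mb the ratios of these classes, from shortest to longest, were 1.90, 1.74, 1.08 and 1.23. That placement gave 32.7% at 20 to 30 kb and 48.1% at 30 kb or more. Both lay inside the intervals of the observed shares. At 5 to 10 kb, just under the limit, the ratio was 3.47, and under 2 kb it was 13.7.

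**Figure D1:**
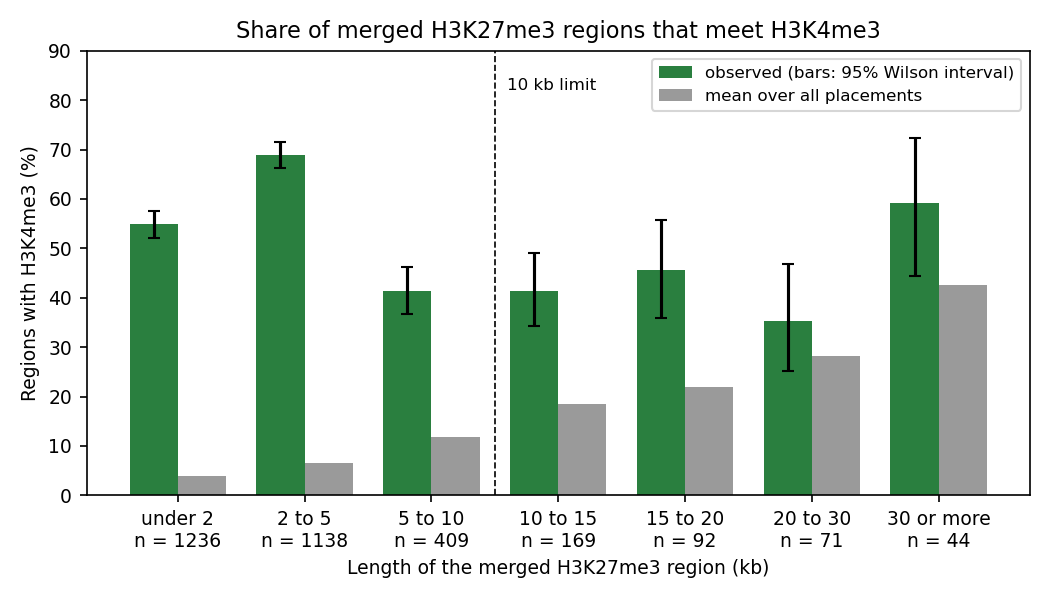
Percentage of merged H3K27me3 regions that met at least 1 H3K4me3 peak, by region length in kb, with the number of regions under each class. Green bars are the observed shares with 95% Wilson intervals and grey bars the means over all placements; the bars are furthest apart at 2 to 5 kb (69.0 and 6.47%) and closest at 20 to 30 kb (35.2 and 28.3%), and stand at 59.1 and 42.6% at 30 kb or more.

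H3K4me3 peaks inside long domains had low scores. Their median score was 241.5 (95% order-statistic interval 174.9 to 378.2; n = 263), against 455.0 for peaks in shorter regions (interval 416.2 to 487.6; n = 1802) and 1322 for peaks outside any merged region (interval 1286 to 1354; n = 9237). Scores below 100 made up 24.0% of the peaks in long domains, 13.9% of those in shorter regions and 5.64% of those outside. Widths differed little, with medians of 1416 bp in long domains, 1428 bp in shorter regions and 1454 bp outside, and the interval in long domains ran from 1278 to 1567 bp. The score may measure significance rather than enrichment, so a lower score is not a measured lower level of the mark.

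The relation to placement therefore depended on the H3K4me3 score. Of the H3K4me3 peaks scoring 50 to 100, 63 lay in long domains, 6.42 times the placement mean of 9.82. The ratio was 4.32 for scores of 100 to 300 (80 peaks) and 2.06 for scores of 300 to 1000 (69 peaks). Above that the ratios lay under 1, with 0.791 for the 25 peaks scoring 1000 to 2000, 0.749 for the 15 scoring 2000 to 3100 and 0.605 for the 11 scoring 3100 or more. Each of these 3 counts was within 2 SD of its mean over the whole chromosome, which was 31.6 (SD 5.83), 20.04 (SD 4.52) and 18.2 (SD 4.30). With placement within 1 Mb the 3 ratios were lower, at 0.672, 0.662 and 0.520, and no SD was computed for them. Pooled at or above the list's median score of 1104, 47 peaks lay in long domains. That was 0.707 times placement, with an interval below 1 (0.519 to 0.940) that treats peaks of the same domain as independent. Counted by domain, the ratio was 0.764 and its interval reached 1 (0.575 to 1.01). In shorter regions the ratio fell with the score too, from 19.6 at 50 to 100 to 2.74 at 3100 or more, but stayed above 1.

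**Figure D2:**
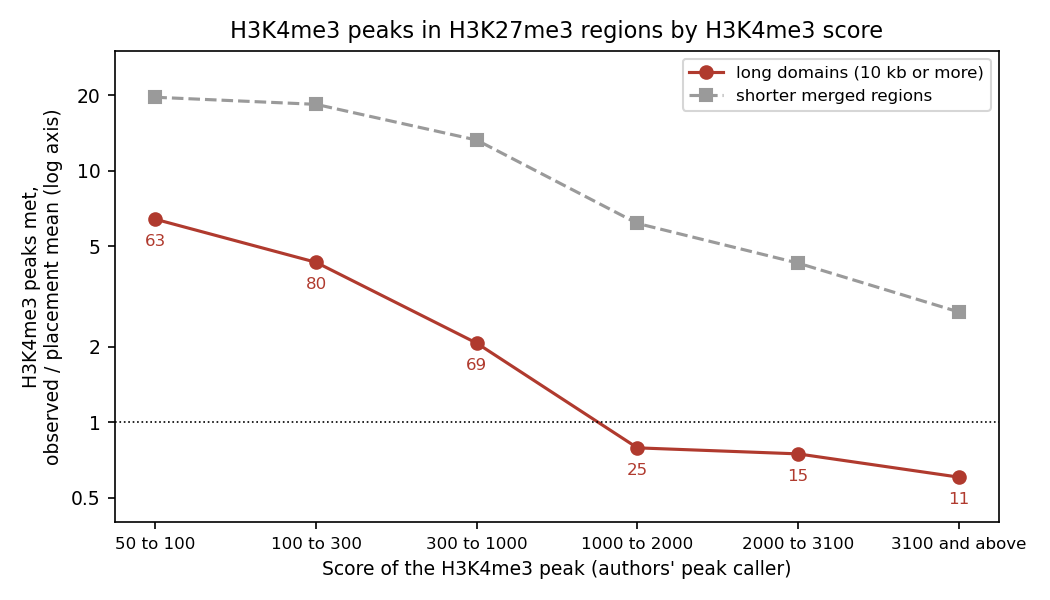
Number of H3K4me3 peaks met, divided by the mean over all placements (log axis), by score class of the H3K4me3 peak; red circles are long domains, with the number of peaks beside each, and grey squares shorter merged regions. The long domains start at 6.42 and end at 0.605, crossing the line at 1 between 300 and 2000. The shorter regions also fall, from 19.6 to 2.74, but stay above that line.

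Position along the domain was examined next. An H3K4me3 peak was called at an edge if it crossed a domain end or lay inside with its midpoint in the outer 20% of the length at either end, and interior if its midpoint lay in the middle 60%. Over all long domains, edge peaks pooled and interior peaks stood in nearly the proportion of the placements. The ratios of the parts of the edge differed, but no interval was computed for them. There were 113 edge peaks (43.0%; interval 37.1 to 49.0%), of which 28 crossed an end, and 150 interior peaks (57.0%). Placement gave 44.4% at an edge, with 58.5 edge and 73.1 interior peaks, so both were in excess, by 1.93 and 2.05 times. Within the edge class, peaks that crossed an end numbered 1.45 times placement (28 against 19.4), the lowest of the parts. Those in the outermost 10% inside numbered 2.74 times (41 against 14.97), the highest. Some crossing peaks began only at -8 or -39 bp from the domain start, so small shifts of a peak boundary move peaks between these parts. The ratio of edge to interior peaks, relative to placement, was 0.942 (interval 0.738 to 1.20). This depended on how domains were joined: with gaps of up to 10000 bp joined, which lengthens domains outward to further peaks, it was 1.65 (interval 1.34 to 2.02).

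**Figure D3:**
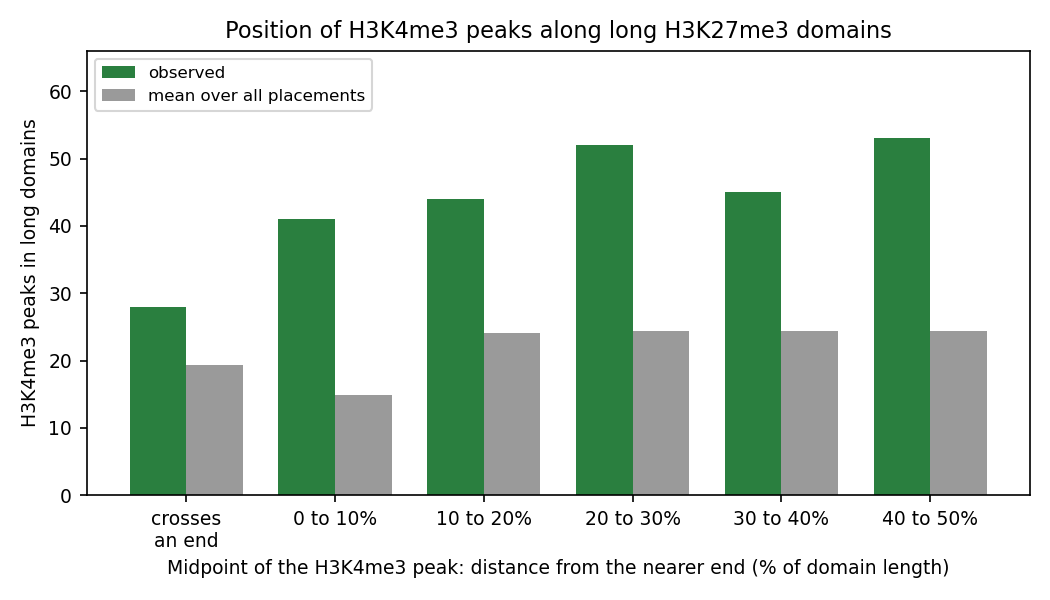
Number of H3K4me3 peaks in long domains that cross an end, or by the distance of the midpoint from the nearer end as a percentage of domain length; green bars are observed and grey bars the means over all placements. Observed counts exceed placement in every part; the ratio is lowest for peaks that cross an end (28 against 19.4) and highest in the outermost 10% inside (41 against 14.97), with 53 against 24.4 in the central part.

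The position of the peaks was also followed by domain length. In the 261 domains of 10 to 20 kb, 65 of 170 peaks lay at an edge (38.2%), with 46.1% in placements; edge relative to interior was 0.723 (interval 0.532 to 0.985). In the 115 domains of 20 kb or more, 48 of 93 lay at an edge (51.6%), with 42.7% in placements, and the value was 1.43 (interval 0.955 to 2.14). In these longer domains edge peaks numbered 1.74 times placement and interior peaks 1.21 times. Of their 48 edge peaks, 9 lay in 3 nearby domains on chromosome 2, described below, which held no interior peak. Without these domains the edge share of the longer class would be lower. Its value and the placement share without them were not computed, so a lean toward the edge is not shown apart from that stretch. The difference between the length classes was not tested. An edge of 20% of the length reaches further in bp in longer domains, and a fixed edge of 2000 bp was run only for all long domains. Without the domains with 5 or more H3K4me3 peaks, interior peaks of the longer class stood at 0.947 times placement and edge peaks at 1.38 times. Leaving domains out by their own peak count lowers such ratios in itself, because the placements were not limited in the same way.

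Per domain, H3K4me3 was interior alone in 79 of the 163 domains (48.5%), at 1 end alone in 53 (32.5%), at both ends alone in 4 (2.45%) and both at an edge and interior in 27 (16.6%). The 101 domains with a single H3K4me3 peak had it in the interior in 57 cases, inside at an edge in 29 and across an end in 15. Edge peaks inside the domain scored lowest, with a median of 154.7 (interval 128.9 to 262.3; n = 85), against 254.2 for interior peaks (interval 164.3 to 418.5; n = 150), and the intervals overlap. Peaks that crossed an end had a median score of 999.8 (interval 583.7 to 1711; n = 28).

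Spacing was measured where a domain held several H3K4me3 peaks; the length of the domain limits it, and no placement value was computed. The 62 domains with at least 2 had 100 gaps between neighbouring H3K4me3 peaks, with a median of 766 bp (quartiles 288.8 and 2671 bp), and 87 of the gaps were no longer than 5 kb. From the first to the last, the H3K4me3 peaks of such a domain spanned 31.9% of its length in the median.

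Inside long domains H3K4me3 lay on H3K27me3 peaks and rarely in the gaps between them. The 235 H3K4me3 peaks wholly inside a domain were covered by H3K27me3 over 95.2% of their width on average, whereas placing each anywhere in its own domain gave 79.0%. Only 5 of them touched no H3K27me3 peak, where such placement gave 16.2. Complete cover was as common as placement gave, in 113 peaks against 115.0. The strongest exception stood in the middle of a domain of 35635 bp on chromosome 21 (2786627 to 2822261): its H3K4me3 peak, from 2803472 to 2806777 with a score of 3100, lay entirely in a gap of 4851 bp between H3K27me3 peaks. Another, with a score of 2938, lay in a gap of a domain of 17308 bp on chromosome 27 (4842138 to 4859445).

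Over all long domains pooled, coverage by H3K4me3 was higher inside the domain ends than just outside them. By the joining rule, no other H3K27me3 peak lies within 5 kb outside an end. An H3K4me3 peak lying on H3K27me3 that close would be counted inside, so this difference is partly set by the rule. H3K4me3 peaks covered 6.28% of the first 5 kb inside the ends of long domains and 5.69% of the sequence further in, against 2.75% of the 5 kb outside. The mean of the domains' chromosomes, weighted by domain length, was 2.52%. The 5 to 20 kb outside had 3.21%. In domains of 20 kb or more the difference at the ends was smaller. Their 1 kb bins ran from 1.90 to 4.01% in the 5 kb outside and from 2.96 to 5.47% in the 5 kb inside. The last kb outside had 4.01% and the first kb inside 4.02%. Domains with and without H3K4me3 were not compared in the flanks next to the ends, because a peak that crosses an end puts its domain in the first set by definition.

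**Figure D4:**
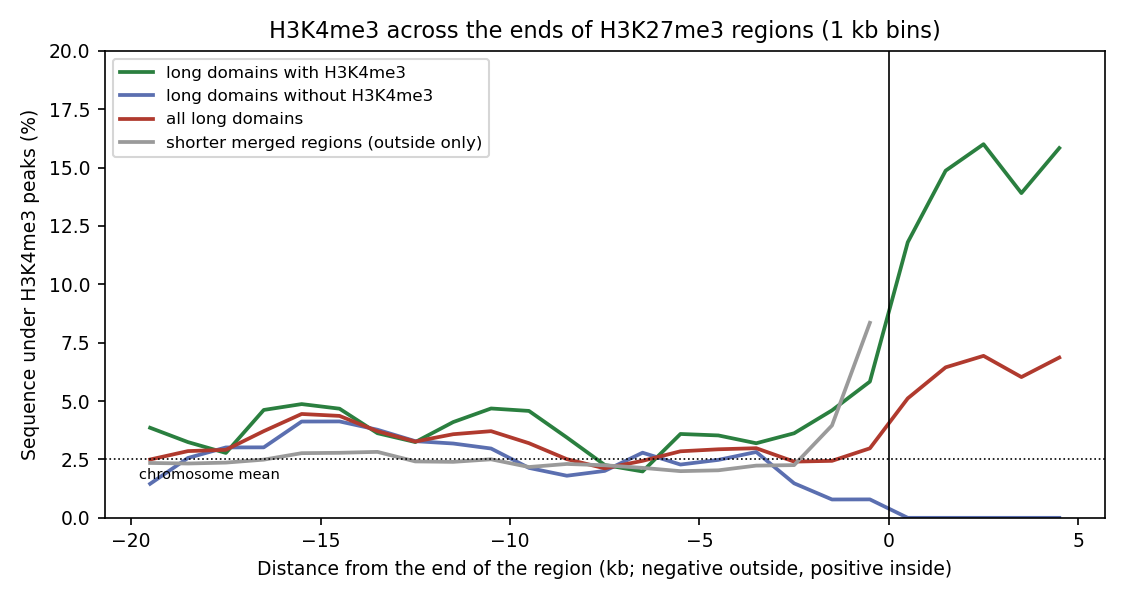
Percentage of sequence under H3K4me3 peaks in 1 kb bins, by distance from the end of the region in kb (negative outside, positive inside, both ends combined), for long domains with H3K4me3, long domains without it, all long domains and shorter merged regions (outside only); the dotted line is the chromosome mean of 2.52%. Coverage over all long domains is 2.98% in the last kb outside and 6.94% between 2 and 3 kb inside, and the domains without H3K4me3 are at 0 inside by their definition. Peaks that cross an end add to the outside of the domains with H3K4me3, also by definition. The joining rule leaves no other H3K27me3 peak within 5 kb outside an end.

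For long domains without H3K4me3, the nearest H3K4me3 peak was 27.9 kb away in the median (quartiles 11.4 and 56.8 kb), and 307.0 kb at most. It lay within 5 kb of 23 of the 213 domains (10.8%; interval 7.30 to 15.7%), against 10.6% of placements without H3K4me3. The shares within 10 and 20 kb were 21.6% (interval 16.6 to 27.6%) and 37.6% (interval 31.3 to 44.2%), against 19.0 and 32.0% of such placements, so the intervals up to 20 kb included the placement share. Within 50 kb it lay at 150 domains (70.4%, interval 64.0 to 76.1%), against 54.6% of such placements. No placement within 1 Mb was set beside these shares.

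In the longest domains H3K4me3 covered little of the length, while the number of its peaks was near that of placement. The 10 longest ran from 64.1 to 109.7 kb; 6 of them held H3K4me3, with 11 peaks in all, where placement gave 4.79 domains and 10.1 peaks. No more than 5.74% of any of the 10 was under H3K4me3. Of the 11 peaks, 8 lay at an edge, and 2 domains on chromosome 2 held 3 and 2 of these. The edge is wide in such long domains: the edge peak of the longest had its midpoint 19.9 kb from the nearer end. The edge share in placements was not computed for the 10. Over all 44 domains of 30 kb or more, 28 of 56 peaks (50.0%) lay at an edge, with 41.9% in placements. Of these 28, 9 lay in 3 nearby domains on chromosome 2, described below, which held no interior peak. Without these domains the edge share would be lower. Its value was not computed, so an edge share above placement is not shown apart from that stretch. The longest of all, on chromosome 9 from 12393091 to 12502835, joined 25 H3K27me3 peaks and had a single H3K4me3 peak, whose span ran from 19.0 to 20.9 kb inside the lower end. The third, on chromosome 18 from 2004532 to 2087516, also had a single one, with a score of 703.2.

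The domains of 83525 bp on chromosome 8 (19456979 to 19540503) and 80045 bp on chromosome 5 (2044166 to 2124210) had none. The nearest H3K4me3 peaks were 6.25 and 5.17 kb beyond their ends. These 2 domains were built differently: the first joined 11 H3K27me3 peaks that covered 91.0% of it, and the second 35 peaks that covered 66.9%. The next longest without H3K4me3 were on chromosome 3 from 3280545 to 3346909, chromosome 6 from 34686774 to 34750889 and chromosome 3 from 3414487 to 3474349, with H3K4me3 at 58.0, 37.5 and 43.0 kb.

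On chromosome 2, 3 of the domains named here shared a layout, but they lie close together in a single stretch and are not separate places. Under the limit of 100 kb used for groups below, only the first 2 form a group. They spanned 32861270 to 32910253, 32974074 to 33053396 and 33156216 to 33233378, and held 4, 3 and 2 H3K4me3 peaks. All 9 peaks lay within 8125 bp of the end with the lower coordinate and none was interior. Their scores, from 60.3 to 236.6, were low for the list. Further H3K4me3 peaks lay outside the lower end of the second domain, at -19.5 to -12.9, -10.6 to -8.69 and -2.56 to -0.274 kb from it. The flanks of the other domains are not described here.

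Among the domains rich in H3K4me3, that on chromosome 7 from 15793742 to 15846066 held 9 peaks. H3K27me3 covered 97.6% of its 52325 bp. A broad H3K4me3 peak of 14207 bp crossed its lower end with a score of 3100, and the other 8 lay between 1.73 and 25.4 kb inside, with scores from 54.4 to 741.9. Beyond 25.4 kb the domain carried H3K27me3 alone. Each H3K4me3 peak inside it was wholly covered by H3K27me3.

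The domain of 61571 bp on chromosome 9 (11347542 to 11409112) had its 6 H3K4me3 peaks between 33.3 and 60.7 kb from the lower end, and none in the stretch before. One of them, 4470 bp wide, scored 3100, and the others scored from 61.2 to 1457. A second domain on chromosome 9, from 16329210 to 16356891, held 7 H3K4me3 peaks over 54.9% of its 27682 bp. Its 9 H3K27me3 peaks had a median score of 193.3, and an H3K4me3 peak of 5502 bp with a score of 3100 lay at its middle, covered by H3K27me3 over 59.1%. The domain on chromosome 19 from 8380783 to 8399561 held 5 H3K4me3 peaks over 51.2% of its length.

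**Figure D5:**
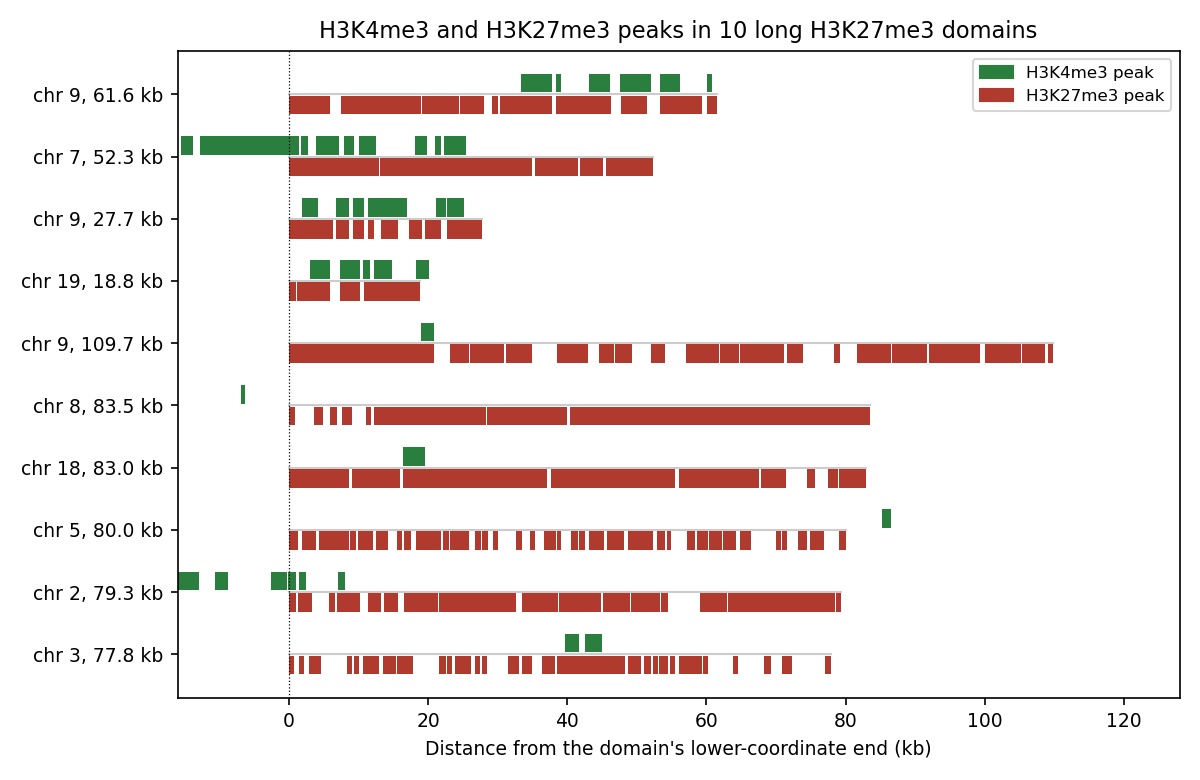
H3K4me3 peaks (green) above H3K27me3 peaks (red) along the 4 domains with 5 or more H3K4me3 peaks and the 6 longest domains, in kb from the end with the lower coordinate; H3K4me3 is drawn up to 15 kb outside. In the domain of 52.3 kb on chromosome 7 and that of 79.3 kb on chromosome 2 the H3K4me3 peaks gather toward the left end, and in the domain of 61.6 kb on chromosome 9 toward the right.

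The 5 domains with the largest shares of length under H3K4me3 were between 10495 and 27682 bp long and included the domains with 7 and 5 H3K4me3 peaks described above. On chromosome 4 from 78383764 to 78394258, 3 H3K4me3 peaks covered 85.0% of 10495 bp, the middle one scoring 3100. The domains on chromosome 1 from 172438312 to 172449383 and on chromosome 4 from 4516450 to 4531607 were covered over 62.2 and 62.1%, also by 3 peaks each. Taken singly, H3K4me3 peaks covered 51.2% or more of each of the 5 domains and H3K27me3 peaks 80.1% or more. The share under both marks at once was not computed.

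The chicken karyotype has large macrochromosomes (here chromosomes 1 to 5), intermediate chromosomes (6 to 10) and small, gene-dense microchromosomes (11 and above). Long domains were densest on microchromosomes, with 163 domains or 0.952 per Mb of span, against 79 domains or 0.552 on intermediate chromosomes and 134 domains or 0.222 on macrochromosomes. Median lengths were similar, at 15685, 16416 and 15655.5 bp. Long domains made up 14.1% of the merged regions on microchromosomes (interval 12.3 to 16.3%), compared with 9.52% on macrochromosomes (interval 8.10 to 11.2%). Chromosome 23 had 15 long domains over 5.03% of its span, whereas chromosome 25 had none among its 13 merged regions.

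H3K4me3 was met at nearly the same share of long domains in the 3 classes, although its own density differed. The shares were 41.1% on microchromosomes (interval 33.8 to 48.8%), 44.3% on intermediate chromosomes (interval 33.9 to 55.3%) and 45.5% on macrochromosomes (interval 37.3 to 54.0%). Placement gave 31.3%, 21.7% and 16.4%, so the ratio to placement was 1.31 (interval 1.08 to 1.56) on microchromosomes, 2.04 (interval 1.56 to 2.55) on intermediate chromosomes and 2.77 (interval 2.27 to 3.28) on macrochromosomes. With placement within 1 Mb the ratios were 1.18, 1.62 and 2.25. On microchromosomes that placement gave 34.7%, inside the interval of the observed share, so no clear excess over nearby sequence was seen there. On intermediate chromosomes and macrochromosomes it gave 27.4 and 20.2%, below the intervals of the observed shares. Chromosome 2 stood high with 20 of 30 domains, while chromosome 11 had 2 of 13 and chromosome 28 had 1 of 9. No placement share was set beside these single chromosomes. Of the 13 domains on chromosome 11, 8 lay in a single group of neighbours without H3K4me3.

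Groups of neighbouring long domains were also listed, with no placement value beside their number, which depends on the density of domains. Of the 376, 148 (39.4%) had another long domain within 100 kb, in 58 groups, of which 19 held 3 or more. The largest group lay on chromosome 11 from 18566465 to 18938068: its 8 domains took up 49.2% of that span, and none held H3K4me3. A group of 5 on chromosome 6, from 34459564 to 34797432, held 3 H3K4me3 peaks in 3 of its domains. On chromosome 3 a group of 3 took up 53.8% of the span from 3280545 to 3629614 and held a single H3K4me3 peak. Over the 90 pairs of neighbours in such groups, both had H3K4me3 in 10, neither in 39 and 1 of the 2 in 41. The counts that unrelated neighbours would give were not computed, so the pairs do not show whether neighbours are alike.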

How the data were processed

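The authors deposited 1 peak list per mark with a score per peak, a deposited score whose scale is not named. Peaks were called with MACS in Galaxy, per the file headers; per the submitters' processing notes, BWA and MACS2 were used with the assembly galGal4, and no version is given. The use of the Input as control and read filters are not given in the sources used here. Read depth is unknown, so the mark may be present where no peak is listed. Scores were compared only within a list.

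Merging, placement and summaries were computed with Python 3.11.15, numpy 2.4.6 and scipy 1.17.1. Placement moved each whole domain to every start between the chromosome's start and the last peak end in either list, and means and SDs over starts are exact, with no sampling. They were tested on simulated data. Intervals are 95% Wilson for shares, divided by the placement mean for ratios and, for edge against interior, taken from the edge share. They are order-statistic for medians. Where a ratio of peak counts to placement has an interval, it is exact Poisson. No test was run.

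The domains, classes and comparisons were chosen with earlier results of these data known. Named domains are the 10 longest, the 5 longest without H3K4me3, the 5 with the most H3K4me3 peaks, the 5 with the largest share under H3K4me3, the 3 nearest the limit on either side, and members of the largest groups. Peaks lying in gaps, the third domain of the chromosome 3 group and single chromosomes were picked after their values were seen.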

Additional observations from a re-analysis of the deposited data

How the results depend on the processing

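Of 99 planned recalculations and 7 added after the data were seen, 67 stayed within the counting interval of the reported value, or within 1.5 times a count. Not all of these kept their direction. Edge over interior, whose interval includes 1, went above 1 with a minimum of 15000 bp (1.15) and with edges of 10% (1.01). Main values were 376 long domains, 43.4% with H3K4me3 (ratio to placement 1.81), 263 H3K4me3 peaks (2.0), 43.0% of them at an edge (edge over interior 0.942), and a ratio of 9.51 in shorter regions; values below follow that order and leave out those that did not move. Taking only H3K4me3 peaks at or above the median score turned both ratios below 1: 11.4% (0.764), 47 peaks (0.707), shorter 4.44. Joining gaps of up to 1000 bp gave 225 domains, 37.3%, 132 peaks and shorter 7.83, and gaps of up to 10000 bp 49.9%, 56.2% at an edge (1.65) and shorter 10.5. Single peaks without merging gave 83 domains, 28.9% (1.44), 32 peaks (1.46), edge over interior 0.701 and shorter 6.92. A minimum of 15000 bp gave 207 domains, ratio 1.58, 164 peaks and shorter 8.39. One of 20000 bp gave 115 domains, ratio 1.31, 93 peaks (1.44), 51.6% at an edge (1.43) and shorter 7.82. Placement within 1 Mb gave ratios of 1.55 and 1.65, and 8.43 in shorter regions. Edges of 10% and 2000 bp at each end held 26.2 and 25.5% of peaks. The shorter regions alone moved with a minimum of 8000 bp (10.1), with H3K27me3 peaks at or above the median score (9.0) and with 50% of the H3K4me3 peak required inside (13.5). The interval of edge over interior included 1 in 12 of its 13 alternatives, the exception being gaps of up to 10000 bp. The causes were not tested. Leaving out the domains with 5 or more H3K4me3 peaks moved none of the 7 values recalculated. No paired analysis was possible because each mark has 1 library. Without read counts, weak marking below the peak callers' threshold cannot be seen, and without replicates no value has an error between embryos.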

Other observations

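Chromosome Z, the sex chromosome carried by both sexes of birds, lies outside the numbered chromosomes. The same merging and length rule gave 17 long domains there, 0.207 per Mb of span, with a median length of 16947 bp and a maximum of 42193 bp. H3K4me3 met 3 of them (17.6%; 95% Wilson interval 6.19 to 41.0%), with 1 peak each, against a placement mean of 12.8%.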
